A study of Rattus norvegicus with 6 samples.

Results

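Hepatocyte growth factor (HGF) signals through the receptor tyrosine kinase MET, and 8 genes of this pathway were followed in the rat testis. They are the receptor gene Met, the related receptor gene Mst1r, the ligand gene Hgf, the activating protease genes Hgfac and St14, the inhibitor genes Spint1 and Spint2, and the adaptor gene Gab1. They were selected on their pathway role and on the lower Met level that was already known in these diabetic rats, and were found by their symbols among the 35291 genes of the expression table, where each symbol labels 1 gene. Met is listed as ENSRNOG00000052745. Because the same comparison led to this choice, the differences of the 8 genes between the groups are given as a description, with no test.

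RNA-Seq values of whole testis from 6 Sprague-Dawley rats, an outbred strain, were compared. The 3 diabetic (DM) rats had been fed a high-fat diet for 1 month, had then received streptozotocin (STZ), a toxin of pancreatic beta cells, at 35 mg/kg, and were examined 8 weeks later. The 3 non-diabetic (ND) rats had received citrate buffer alone, and whether they had the same diet is not given in the sources used here. RNA of whole testis holds all cell types of the organ, so fewer cells of a type cannot be told apart from less RNA per cell.

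HGF is made as an inactive single chain, mainly by mesenchymal cells, and acts on neighbouring cells that carry MET. Serine proteases cut the chain into the active form, and Kunitz-type inhibitors on the cell surface hold these proteases back. Bound MET phosphorylates itself and docks adaptors, of which GAB1 is the main one. In the testis, HGF and MET are known from peritubular myoid cells, Sertoli cells and Leydig cells, the cells that make testosterone. Germ cells make up most of the organ.

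The levels are given in FPKM, in which fragments are scaled by transcript length and library size, so that genes can be compared per length. How many reads each library held is unknown, and precision rests on the spread between 3 rats. The totals of the 6 columns lay between 453304 and 478211 FPKM, and the scaling factors from median ratios between 0.989 and 1.03. No library stood apart: the lowest correlation of log2 values within a group was 0.958, and the highest between the groups was 0.966. Germ cell markers summed to at least 5680 FPKM in every rat. The RNA protocol in the labels mentions adipose tissue, so adipocyte markers were also read. They summed to 5.48 to 8.17 FPKM, beside 5.82 to 7.64 FPKM for endothelial markers. These sums do not settle how much adipose tissue, if any, the samples held. Epididymal markers summed to at most 0.179 FPKM, with Defb1 and Spink13 at 0 in every rat.

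Of the 8 genes, 5 reached a mean of 0.5 FPKM over the 6 rats and entered the comparison across 20338 genes. These were Met, St14, Spint2, Gab1 and Mst1r, while Hgf, Hgfac and Spint1 stayed below this level. Log2 differences, DM minus ND, were taken on log2(FPKM + 0.1), a scale that understates the difference of low genes, and their standard errors (SE) came from limma. For the 3 genes below 0.5 FPKM they came from a fit without the filter on low genes.

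Met was lower in the DM rats than in every ND rat. It was at 1.28, 1.23 and 1.21 FPKM in the DM rats. In the ND rats it was at 2.97, 2.92 and 3.09 FPKM. The groups were far apart compared with the spread inside them, which was 3.25% of the mean in the DM rats and 2.93% in the ND rats. On average Met was at 1.24 ± 0.0402 FPKM in the DM and 2.99 ± 0.0879 FPKM in the ND rats (SD, n = 3 each), which is 2.42 times more in the ND rats. The log2 difference was -1.21 with an SE of 0.14. With any 1 of the 6 rats left out, it stayed between -1.23 and -1.19. Since Met was chosen for this difference in the same rats, these values describe it and do not test it.

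The study screened genes by a log2 fold change of at least 1 and p below 0.05. Here this was applied to limma on log2(FPKM + 0.1), in either direction and with p before adjustment, and is called the criterion. It called 1.24% of all genes tested, and 0.846% of them as lower in the DM rats. Met was chosen for its lower level in this comparison, so nothing is read from its place beyond -1. The groups overlapped for the other 4 of the 5 genes, while groups that do not overlap were found for 13.0% of all genes tested, and for 8.42% with the DM rats lower. The median log2 difference was -0.056 over the 5 genes and -0.021 over all genes tested.

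**Figure D1:**
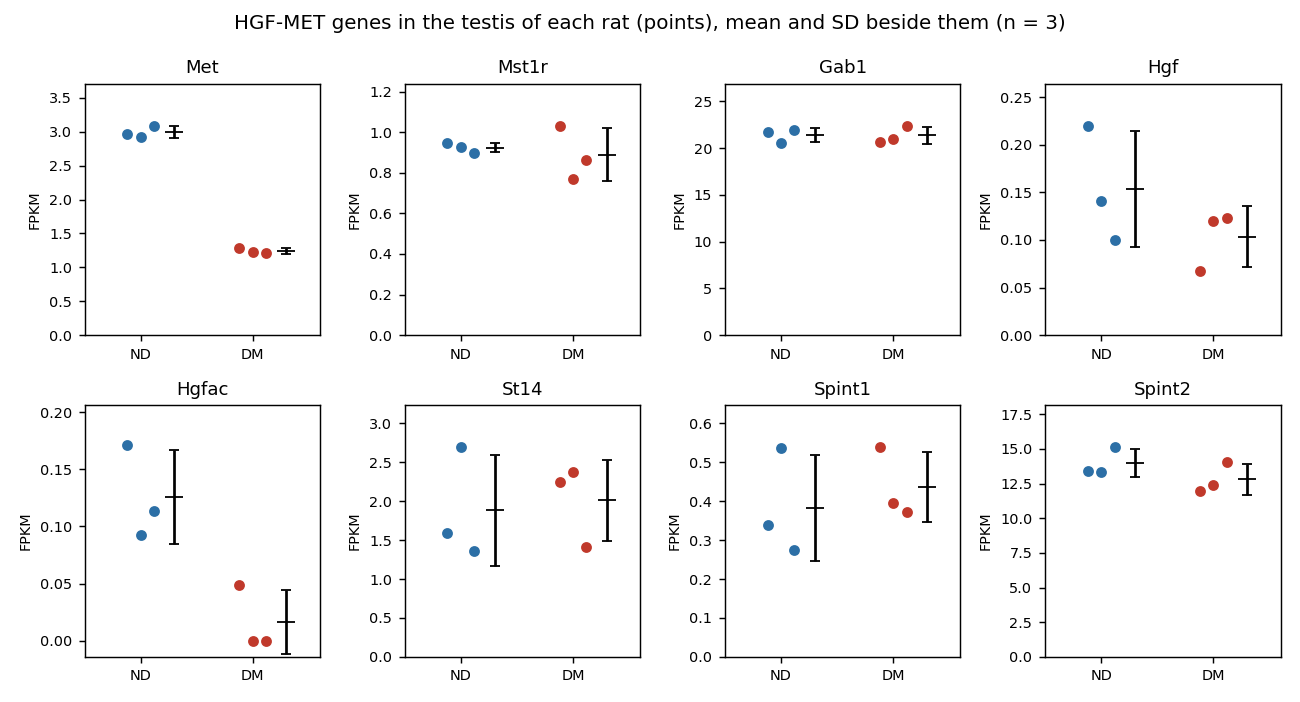
Level of each of the 8 genes in FPKM (vertical axes, each with its own scale) in the 3 ND and the 3 DM rats. Points are single rats, and the bar beside them is the mean with its SD; Met separates into a group near 3 FPKM and a group near 1.2 FPKM, whereas the points of Gab1, Mst1r, St14, Spint1, Spint2 and Hgf overlap.

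Mst1r encodes RON, the receptor closest to MET, which binds macrophage-stimulating protein in place of HGF. It was at 1.03, 0.772 and 0.864 FPKM in the DM rats and at 0.944, 0.926 and 0.899 FPKM in the ND rats. The DM values lay on both sides of the ND values, and the log2 difference was -0.056 with an SE of 0.22. It was -0.158 without DM replicate 1 and turned to 0.031 without DM replicate 2. Within a rat, Met stood at 3.25 ± 0.169 times Mst1r in the ND rats and at 1.41 ± 0.173 times in the DM rats (SD, n = 3 each). The receptor pair was closer to equal levels in the DM testes, and the ratios of the groups did not overlap. Since Mst1r overlapped between the groups, the ratio restates the lower level for which Met was chosen and is no further result.

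Gab1, which encodes the large adaptor that carries the signal of MET to further kinases, was the most abundant of the 8 genes. It was at 20.7, 21.0 and 22.4 FPKM in the DM rats and at 21.7, 20.5 and 22 FPKM in the ND rats. The groups overlapped almost completely. The log2 difference was -0.0028 with an SE of 0.066, and its sign changed among the settings tried. There were 17.3 ± 1.23 FPKM of Gab1 for each FPKM of Met in the DM rats and 7.15 ± 0.149 in the ND rats (SD, n = 3 each). That ratio, too, restates the lower level for which Met was chosen.

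Hgf, the ligand gene, was low in every testis. It was at 0.0669, 0.120 and 0.123 FPKM in the DM rats and at 0.220, 0.141 and 0.10 FPKM in the ND rats. The highest values came from ND replicates 1 and 2, and the lowest from DM replicate 1, but the groups overlapped. The log2 difference was -0.30 with an SE of 0.30, and between -0.46 and -0.12 with each rat left out. Per length, Met exceeded Hgf by 9.79 to 20.7 times in 5 of the rats and by 30.8 times in ND replicate 3, and these ratios overlapped between the groups.

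Hgfac encodes HGF activator, a protease made chiefly by the liver. The table lists it at 0 in DM replicates 2 and 3 and at 0.0485 FPKM in DM replicate 1. In the ND rats it was at 0.172, 0.0923 and 0.113 FPKM. All ND values were above the DM values, and all 6 were below 0.2 FPKM. The log2 difference was -0.97 with an SE of 0.28, and it depended on the pseudocount, being -2.87 with 0.01 and -0.15 with 1 FPKM.

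St14 encodes matriptase, a membrane-bound protease that activates pro-HGF at epithelial surfaces. It was at 2.24, 2.38 and 1.41 FPKM in the DM rats and at 1.6, 2.69 and 1.36 FPKM in the ND rats. A high and a low level occurred in both groups, with ND replicate 2 the highest and ND replicate 3 the lowest. The log2 difference was 0.11 with an SE of 0.30. The sign turned when a rat was left out, with a range from -0.077 to 0.39. In the ND rats the spread was 37.7% of the mean, which is wider than that of 90.0% of all genes tested.

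Spint1 and Spint2 encode the inhibitors HAI-1 and HAI-2, which block matriptase and HGF activator. Spint1 was at 0.539, 0.395 and 0.373 FPKM in the DM rats and at 0.338, 0.536 and 0.274 FPKM in the ND rats. Spint2 was at 12, 12.4 and 14.1 FPKM in the DM rats and at 13.4, 13.4 and 15.1 FPKM in the ND rats. Both genes had overlapping groups. The log2 difference was 0.17 with an SE of 0.32 for Spint1 and -0.13 with an SE of 0.093 for Spint2. With 1 rat left out, Spint1 ranged from 0.007 (without ND replicate 3) to 0.39 (without ND replicate 2). Spint2 ranged from -0.195 (without DM replicate 3) to -0.067 (without ND replicate 3). Between the inhibitors, Spint2 was the dominant transcript in each rat, at 22.2 to 55.2 times the level of Spint1.

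The protease and its inhibitors were also compared within each rat. St14 stood at 4.66 ± 1.2 times Spint1 in the DM rats and at 4.91 ± 0.164 times in the ND rats (SD, n = 3 each). Spint2 stood at 6.83 ± 2.71 times St14 in the DM rats and at 8.15 ± 3.08 times in the ND rats (SD, n = 3 each). Both ratios overlapped between the groups.

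**Figure D2:**
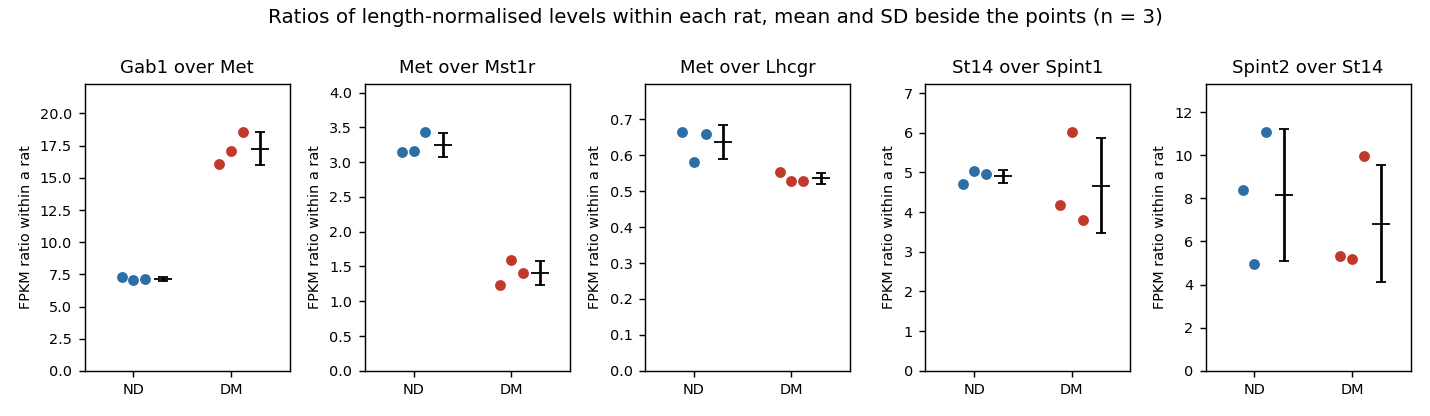
Ratios of FPKM within each rat (vertical axes from 0) for the ND and the DM rats, with points for single rats and a bar for the mean and SD. The 3 ratios that hold Met (against Gab1, Mst1r and the LH receptor gene Lhcgr) separate the groups, and the ratios of St14 to Spint1 and of Spint2 to St14 do not. Met was chosen for its lower level, and Gab1 and Mst1r overlapped between the groups, so the ratios to these restate that choice. Lhcgr is a single Leydig cell marker, and other markers differed from it.

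The order of the levels was Gab1, Spint2, Met, St14, Mst1r, Spint1, Hgf and Hgfac by the mean over the 6 rats. Gab1 and Spint2 were separate from each other and from the other 6 genes in every rat. Met and St14 could not be ordered over all rats, since their ranges overlapped. Met was above St14 in 3 of 3 ND rats and below it in 3 of 3 DM rats. St14 lay above Mst1r, Mst1r above Spint1, and Spint1 above Hgf in all 6 rats, and their ranges did not overlap. Hgf and Hgfac were the lowest and had overlapping ranges. Among all genes of the table, Gab1 was above 88.6% and Spint2 above 84.0%, while Hgf was above 29.8% and Hgfac above 25.0%.

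Levels of markers of the cells that could carry Met were read beside it. Of 7 Leydig cell markers, 6 were in the table, and 5 of these 6 were called as lower in the DM rats by the criterion, against 0.846% of all genes tested. Their summed level was 27.3 to 57.3 FPKM in the DM rats and 84.5 to 117.0 FPKM in the ND rats. Lhcgr, the LH receptor gene, was at 2.31 ± 0.018 FPKM in the DM and 4.72 ± 0.292 FPKM in the ND rats (SD, n = 3 each). Its log2 fold change, -0.999, missed the criterion, and its adjusted p in limma was 0.0559. The adjusted p in limma was 0.0415 for Cyp17a1 and between 0.484 and 0.624 for the remaining Leydig markers. Met stood at 0.536 ± 0.0147 times Lhcgr in the DM rats and 0.636 ± 0.0477 times in the ND rats (SD, n = 3 each), so the ratio was lower with DM although both genes were. Other Leydig markers differed in this. The mean in the DM rats over that in the ND rats was 0.414 for Met, but lower for Cyp17a1 (0.324) and Insl3 (0.375). It was higher for Hsd17b3 (0.449), Star (0.451), Cyp11a1 (0.464) and Lhcgr (0.489). Whether Met differed more or less than a Leydig marker thus depended on the marker. The part of Leydig cells in the lower level of Met was not tested.

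For the other cell types, 32 markers of Sertoli cells, peritubular myoid and smooth muscle cells, endothelium, macrophages, germ cells and simple epithelium were tested in limma. By the criterion 0 were called, and 3, or 9.38%, had p below 0.05 before adjustment, against 7.46% of all genes tested. Sertoli cell markers summed to 313.0 to 330.0 FPKM in the DM and 265.0 to 333.0 FPKM in the ND rats. Those of peritubular myoid and smooth muscle cells summed to 72.8 to 79.3 FPKM and 74.7 to 94.3 FPKM. Those of macrophages summed to 22.8 to 29.3 FPKM and 29.1 to 30.7 FPKM, of which Mrc1 alone held 20.8 and 21.6 FPKM on average. All 5 macrophage markers had negative log2 fold changes, with a median of -0.80. The 3 markers with p below 0.05 were among them, Cd68 at -0.98, C1qa at -0.82 and Csf1r at -0.80, and the lowest adjusted p in limma was 0.336. Simple epithelium, the kind of tissue in which matriptase and its inhibitors are best known, had marker sums of 7.97 to 9.27 FPKM in the DM and 9.57 to 10.7 FPKM in the ND rats. Its markers Krt18 and Cldn4 had means of at most 0.0221 FPKM, and Epcam, which germ cells also express, was at 4.54 and 4.95 FPKM. Their part in the levels of Met, St14 and the inhibitors was not tested.

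The other genes around HGF and MET were read from lists by role. The first list holds further proteases that can activate HGF or macrophage-stimulating protein, the gene of that protein, Mst1, and Serpina5, an inhibitor of such proteases. Of its 13 genes, 4 reached 0.5 FPKM. By the criterion on the limma fit 0 were called, and 0 had an unadjusted p-value below 0.05. Plau, the gene of urokinase, was at 5.01 ± 0.391 FPKM in the DM and 5.54 ± 1.32 FPKM in the ND rats, and Plat, the gene of tissue plasminogen activator, at 2.5 ± 0.597 and 2.0 ± 0.372 FPKM (SD, n = 3 each). Mst1 was at 4.54 ± 0.519 and 4.25 ± 0.785 FPKM, and Serpina5 at 41.4 ± 4.30 and 41.6 ± 6.83 FPKM (SD, n = 3 each). The groups overlapped for all 4, and the lowest adjusted p-value from limma was 0.843. Hpn, Klkb1, F11 and F12, the genes of hepsin, plasma kallikrein and factors XI and XII, each had a mean below 0.5 FPKM.

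The second list holds 21 genes of co-receptors, sheddases, phosphatases and ubiquitin ligases that act on MET at the cell surface, of which 17 were tested. In limma 0 of them were called, and 2 had p below 0.05 before adjustment. The lowest adjusted p-value from limma in this list was 0.273, for Nrp1. Nrp1, the gene of neuropilin-1, which also binds VEGF and semaphorins, was at 1.76, 1.67 and 1.93 FPKM in the DM rats and at 2.94, 3.19 and 2.86 FPKM in the ND rats. Its groups did not overlap, with a log2 fold change of -0.72 and an SE of 0.13. Dcn encodes decorin, a matrix proteoglycan that can bind MET, and was at 4.27 ± 0.134 and 7.43 ± 2.56 FPKM (SD, n = 3 each). One ND rat, replicate 2, stood at 10.4 FPKM for Dcn, and limma gave a log2 fold change of -0.73 with an adjusted p of 0.514. The groups of Dcn did not overlap, and without ND replicate 2 the log2 fold change was -0.469. Ptprj, a phosphatase gene, was at 0.465 ± 0.0937 and 0.761 ± 0.153 FPKM (SD, n = 3 each), and limma gave -0.61 on the log2 scale with an adjusted p of 0.740. The other 14 genes had absolute log2 fold changes below 0.5, among them Cbl, the ubiquitin ligase of activated MET, at 0.041, and the sheddase genes Adam10 and Adam17 at -0.086 and -0.083.

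The third list holds 33 adaptors and effectors, of which 32 were tested. In limma 0 of them were called, and 1 had p below 0.05 before adjustment. For 31 of the 32 the absolute log2 fold change was below 0.5. The exception was Pik3r1, the gene of the regulatory subunit of PI3-kinase, at 2.23 ± 0.573 FPKM in the DM and 3.2 ± 0.160 FPKM in the ND rats (SD, n = 3 each), where limma gave a log2 fold change of -0.53 with an adjusted p of 0.613. Rap1a and Rac1, which encode small GTPases, followed with -0.29 (adjusted p = 0.796 from limma) and -0.23 (adjusted p = 0.722 from limma), and their groups overlapped. Grb2, Sos1 and Ptpn11, which link the docked receptor to RAS, had values of -0.066, -0.0066 and 0.014.

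Over the 3 lists, 53 of 67 genes were tested, and 0 passed the criterion or an adjusted p-value below 0.05 in limma. An unadjusted p-value below 0.05 was reached by 3 genes, or 5.66%, against 7.46% of all genes tested. Of all genes tested, 0.0344% had an adjusted p-value below 0.05. Groups without overlap occurred in 7 of the 53 genes, or 13.2%, against the 13.0% given above. The median log2 fold change over the 53 genes was -0.035.

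**Figure D3:**
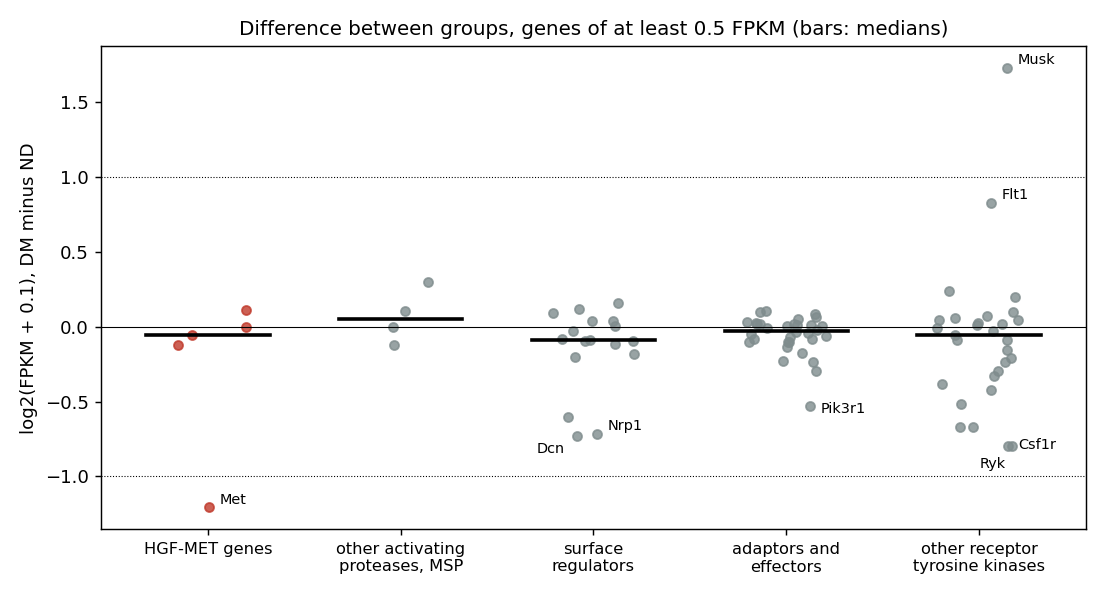
Log2 difference of FPKM + 0.1, DM minus ND (vertical axis), for the genes of at least 0.5 FPKM in each list; points are genes, thick bars are list medians and dotted lines mark a difference of 1 in either direction. Met, chosen for its lower level, lies alone below -1, and the medians of the 5 lists lie between -0.086 and 0.052.

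Met was also set beside 48 other receptor tyrosine kinases, of which 29 were tested and 0 were called by the criterion. Of these 29, 8 reached an unadjusted p-value below 0.05 in limma, which is 27.6% against 7.46% of all genes tested, and 7 of the 8 were lower in the DM rats. The lowest adjusted p-value from limma was 0.336, for Csf1r, the receptor gene of macrophages, at 1.27 ± 0.144 and 2.27 ± 0.244 FPKM (SD, n = 3 each). Ryk, a receptor of WNT proteins, was the most abundant, at 15.2 ± 1.77 FPKM in the DM and 27.6 ± 9.23 FPKM in the ND rats (SD, n = 3 each), and limma gave a log2 fold change of -0.80 with an adjusted p of 0.553. The groups of Ryk overlapped, with ND replicate 1 at 17.0 FPKM and the other ND rats at 32.9 and 33.1 FPKM. Without ND replicate 1 the log2 fold change of Ryk was -1.12, past the criterion. Without ND replicate 2 or ND replicate 3 it was -0.64.

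In the opposite direction, Flt1, the gene of VEGF receptor 1, was at 2.22 ± 0.714 FPKM in the DM and 1.19 ± 0.239 FPKM in the ND rats (SD, n = 3 each). Its log2 fold change was 0.83 (adjusted p = 0.559 from limma), and 1.01 without DM replicate 1, past the criterion. Without DM replicate 3, the highest at 3.02 FPKM, it was 0.59. Musk, a receptor gene of the neuromuscular junction, had the largest value, 1.73 with an SE of 1.15, which rested on DM replicate 1 at 2.91 FPKM while the other 5 rats were below 0.1 FPKM. Without DM replicate 1 the value of Musk was 0.39. Met had the lowest log2 difference of the 30 receptors, which follows from its choice by this difference. By level it ranked 16 in the ND rats and 22 in the DM rats.

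**Figure D4:**
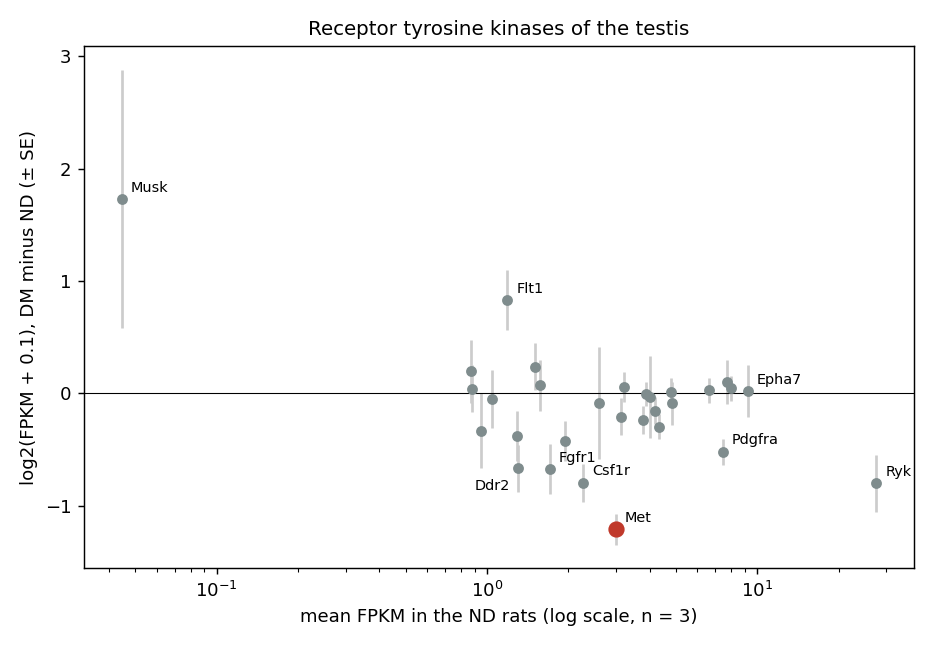
Log2 difference, DM minus ND, with its SE (vertical axis) against the mean FPKM in the ND rats (log axis) for Met, in red, and 29 other receptor tyrosine kinases. Met, near 3 FPKM and chosen for its lower level, lies below all others, and Musk at the left has the widest error bar.

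The genes with the most similar pattern to Met were sought among 14984 genes with a symbol and a mean of at least 1 FPKM, by Pearson's r of log2 values over the 6 rats. These rats fall into the 2 groups, so a high r reflects the distance between the groups and gives no more than a description. The first 5 genes were Laptm5 (r = 0.997), a gene of lysosomes in blood-derived cells, Aldh1l1 (r = 0.996), a folate enzyme gene, AC120712.1 (r = 0.995), Lhcgr (r = 0.992) and Parp9 (r = 0.992). All 5 were lower in every DM rat than in every ND rat, which follows from their choice by likeness to Met. Laptm5 and AC120712.1 were below 1 FPKM in the DM rats and reached the mean of 1 FPKM only through the ND rats. Laptm5 was at 0.576 ± 0.0131 FPKM in the DM and 1.5 ± 0.056 FPKM in the ND rats, and Parp9 at 1.49 ± 0.0472 and 2.95 ± 0.245 FPKM (SD, n = 3 each). The mean in the DM rats was 41.4% of that in the ND rats for Met, 38.5% for Laptm5, 48.9% for Lhcgr, 50.6% for Parp9, 62.3% for Aldh1l1 and 2.9% for AC120712.1. AC120712.1 spread more in the ND rats, at 4.15, 4.04 and 3.14 FPKM, and was at 0.104 to 0.121 FPKM in the DM rats.

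**Figure D5:**
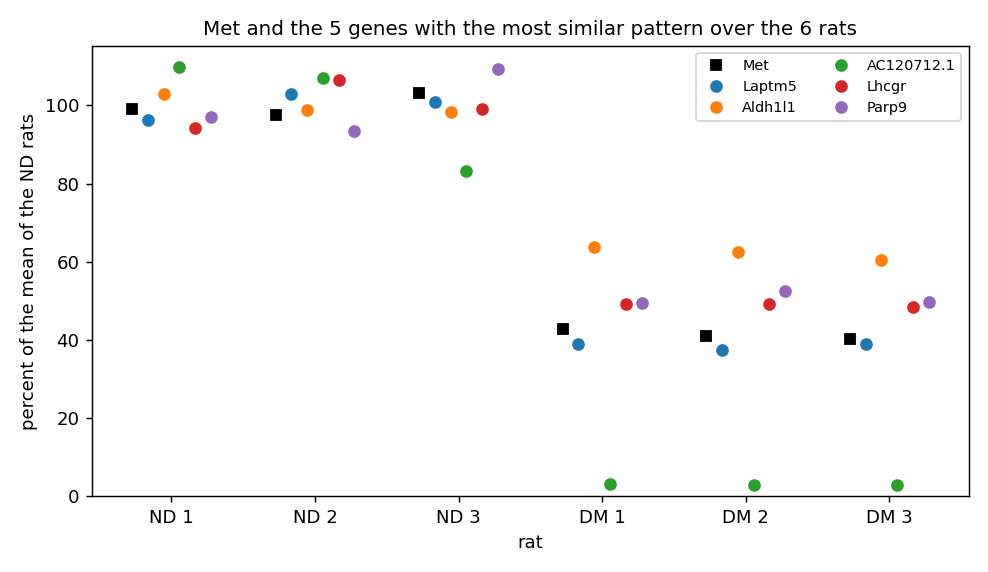
FPKM of Met and of the 5 genes with the highest correlation with it, in each rat, as a percent of the gene's mean in the ND rats (vertical axis from 0). In the DM rats Met lies between Laptm5 and Lhcgr, near 41.4%.

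The genes beside Met on the chromosome, by their order in RefSeq (assembly GRCr8), were read as well. Cav1 and Cav2 precede it, and Capza2 and ST7 follow it. Cav1, the gene of caveolin-1, was at 4.02 ± 0.575 FPKM in the DM and 5.16 ± 0.307 FPKM in the ND rats (SD, n = 3 each), with groups that did not overlap and a log2 difference of -0.36, for which limma gave an adjusted p of 0.627. Capza2 differed by -0.060 on the log2 scale (adjusted p = 0.909 from limma), and the groups overlapped for Capza2, Cav2 and ST7.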

How the data were processed

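Testis RNA of 3 diabetic and 3 non-diabetic rats was sequenced in paired-end mode. Per the paper's methods, the authors compared reads with rRNA by BWA, aligned them with STAR and assembled transcripts with StringTie; versions and the genome build are not given in the sources used here. The deposited values are FPKM per gene, calculated by the authors, and gene totals do not show single transcripts. FPKM are no counts, so read depth is unknown and counting tests were not used.

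The labels gave each sample's group and replicate number. Values were compared on log2(FPKM + 0.1), for genes whose mean reached 0.5 FPKM, with limma 3.58.1 in R 4.3.3 (lmFit, eBayes with trend, two-sided, Benjamini-Hochberg over 20338 genes). Other values were computed with Python 3.11.15. The fit was tested on simulated data.

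The members and lists were chosen with earlier results of these data known. Named are the 8 members, in each other list the 3 genes with the largest absolute log2 fold change and any gene called, and the 5 genes most like Met. Other genes are named as examples and were chosen after their values were seen, as were the neighbours of Met. Alternatives were other pseudocounts, filters and scalings, eBayes without the trend, the replicate number as a block, and leaving out each rat. Small RNA libraries and the other experiments of the study were not analysed here. Nothing in the sources used here gives litters or cages. The SE and p-values rest on the spread between these 6 samples. For each gene, eBayes drew the variance towards a trend over the genes of the fit, so they do not measure that gene's own spread alone.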

Additional observations from a re-analysis of the deposited data

How the results depend on the processing

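The log2 difference of Met was -1.208, and -0.835 with a pseudocount of 1 and -1.266 with 0.01, as follows from the pseudocount's own weight at this level. The filters, eBayes without the trend and the replicate block cannot move this difference of group means, so they say nothing on its stability. With the other scalings it was -1.18 and -1.209. With each rat left out it lay between -1.232 and -1.185. Of the genes tested in the 3 other pathway lists, 0 passed the criterion under any of the 14 alternatives. The 8 members are not counted in this. Plau and Mst1 turned sign when 1 rat was left out: Plau ranged from -0.223 to 0.063, positive without non-diabetic replicate 2, and Mst1 from -0.055 to 0.197, negative without non-diabetic replicate 1.

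Of all genes tested, 253 passed the criterion, against 91 with a pseudocount of 1 and 621 without a filter. The adjusted p-value was below 0.05 for 7 genes, for 4 with the replicate number as a block (replicate block), for 12 when eBayes had no trend, for 3 with all genes kept, and 0 (without non-diabetic replicate 3) to 11 (without non-diabetic replicate 1) when 1 rat was left out; without diabetic replicate 1 it was 4. The cause was not tested. The rats are different animals, so the numbers were not taken to pair them. The deviations of equally numbered rats correlated at 0.106, 0.0153 and 0.0979, and those of unequally numbered rats at -0.126 to 0.0318. Whether rats of equal number share an effect was not tested. With equal numbers in both groups the block cannot change the log2 difference of Met, -1.208. Hgf, Hgfac and Spint1 had means below 0.5 FPKM, where unknown depth limits any statement.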

Other observations

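Among the 5 genes other than Met with a mean of at least 0.3 FPKM, St14, Spint1, Spint2, Mst1r and Gab1, the levels over the 6 rats were compared in 10 pairs, which were chosen after the values were seen. St14 and Gab1 went in opposite directions, with Pearson's r = -0.953 (exact permutation p = 0.0167, adjusted p = 0.167) and Spearman's rho = -0.886 (exact permutation p = 0.0333, adjusted p = 0.167). The spread of Gab1 over the 6 rats was only 3.51% of its mean, against 28.9% for St14. The permutations exchanged rats across the groups. Without the 2 rats farthest from the median of St14, r was -0.950 over 4 rats. St14 and Spint1 had r = 0.837 (exact permutation p = 0.0417, adjusted p = 0.190) and rho = 0.771 (exact permutation p = 0.103, adjusted p = 0.172), and r was 0.635 without those 2 rats. Spint1 and Spint2 had r = -0.735 (exact permutation p = 0.0847, adjusted p = 0.190) and rho = -0.886 (exact permutation p = 0.0333, adjusted p = 0.167), and r was -0.087 without the 2 rats farthest from the median of Spint1. These are the pairs with an unadjusted permutation p below 0.05 for r or rho. Others had r of like size: Spint1 and Gab1 -0.799, St14 and Spint2 -0.746, and Spint2 and Gab1 0.725. The pairs share genes, so they are not separate results, and Spint1 was below 0.5 FPKM, where unknown depth limits any statement. After adjustment over the 10 pairs none of the pairs passed 0.05. DM replicates 1 and 2 and ND replicate 2 held the 3 highest values of both St14 and Spint1, so that the order of the rats did not follow the groups.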
